A study of Mus musculus with 37 samples.

Results

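Splenic dendritic cells (sDCs) given the cytokine IL-10 were compared with sDCs left untreated. The comparison rests on 4 of the 37 samples of the series, 2 for each group, all from C57Bl6cJ mice. IL-10 was used at 100 ng/ml for 4 h, with no LPS in either group, and the untreated group received neither agent. The cells were enriched from spleen with the magnetic BD IMag Mouse Dendritic Cell Enrichment Set, and replicates came from independent mice. Alongside these, sDC groups with the bacterial endotoxin LPS were read where they bear on the same genes. LPS was given at 100 ng/ml for 4 h, after the period with or without IL-10. The IL-10 and untreated groups of peritoneal macrophages, bone marrow neutrophils and bone marrow-derived mast cells were read in the same way. Each of these groups has 2 samples of the same strain. Per the paper, thioglycollate was used to elicit the macrophages, and the neutrophils were matured in GM-CSF overnight. For neutrophils, untreated therefore means without IL-10 or LPS, and not free of added cytokine. In the table that was deposited, each transcript has for each group a single normalized tag count, which is the mean of both replicates, so no replicate error and no p-value can be given. Transcripts of a gene were summed, and 5944 of the 6509 genes in the table were kept because 1 of the 2 groups reached 10. Changes are log2((IL-10 + 1)/(untreated + 1)), and a gene was called raised or lowered at 2-fold or more. LPS and the later time at which it was given cannot be told apart.

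IL-10 binds a receptor made of Il10ra and Il10rb, which acts through the kinases Jak1 and Tyk2 to phosphorylate the transcription factor STAT3. In dendritic cells, which take up antigen and present it to T cells, IL-10 is known to restrain the cytokines and costimulatory molecules that microbial products induce. The spleen holds conventional dendritic cells, with a Clec9a and Xcr1 positive class and a Cd4 positive class, as well as plasmacytoid dendritic cells.

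The conventional dendritic cell markers that could be read were present. Of 24 such markers, 9 were in the table and all 9 were kept, with summed values of 30393.5 untreated and 31794 with IL-10. Itgax, which encodes CD11c, stood at 4075.5 untreated and 2753 with IL-10, Cd4 at 2306.5 and 1444, Clec9a at 243.5 and 156.5, Xcr1 at 189.5 and 205.5, and the antigen uptake receptor Ly75 at 7627.5 and 10624.5. None of the 9 passed 2-fold, and their median log2 change was 0.02. The preparation is a bulk one, in which fewer cells of a type and less RNA per cell cannot be told apart, and markers of other cells were well above 0. Their summed values, untreated and then with IL-10, were 9268.5 and 8773.5 for plasmacytoid dendritic cells (8 markers in the table), 9709 and 9544 for B cells (12 markers), 17814 and 16877.5 for T cells (10 markers, with 15963 and 14900.5 of it from Tcf7) and 4066.5 and 3782.5 for NK cells (6 markers). For macrophages and monocytes (15 markers) they were 21508 and 25570, for neutrophils (11 markers) 14183.5 and 16139.5, for mast cells and basophils (5 markers) 9110.5 and 7008.5, and for erythroid cells and platelets (11 markers) 3481 and 2953.5. The mast cell tryptases Tpsb2 and Tpsab1 were listed at 0 in both groups. Il4 was low too, so nearly all of the mast cell and basophil sum came from the other markers of that list. Of the 79 different markers kept over the 9 lists, 1 passed 2-fold, Il4, at 9.5 untreated and 20 with IL-10. The part of these other cells in the changes below was not tested.

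Few of the gene sums read here, which cover part of the transcriptome, differed 2-fold or more between sDCs with IL-10 alone and untreated sDCs. Of 13873 transcripts taken singly, 13.1% did. Of the 5944 genes, 87 (1.46%) were raised and 43 (0.723%) were lowered 2-fold or more, and 92.7% lay within 1.5-fold of the untreated value. The genes that rose most included Tgfbi, an extracellular matrix protein made by monocytes and macrophages, the kinesin Kif1a, the angiogenic growth factor Pgf and the interferon-inducible GTPases Tgtp1 and Tgtp2. Among those that fell were the chemokine Ccl19, the ubiquitin ligase Nedd4 and the tetraspanin Tspan3. The median log2 change over all kept genes was 0.01 and the median size of a change, with the sign dropped, was 0.13.

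**Figure D1:**
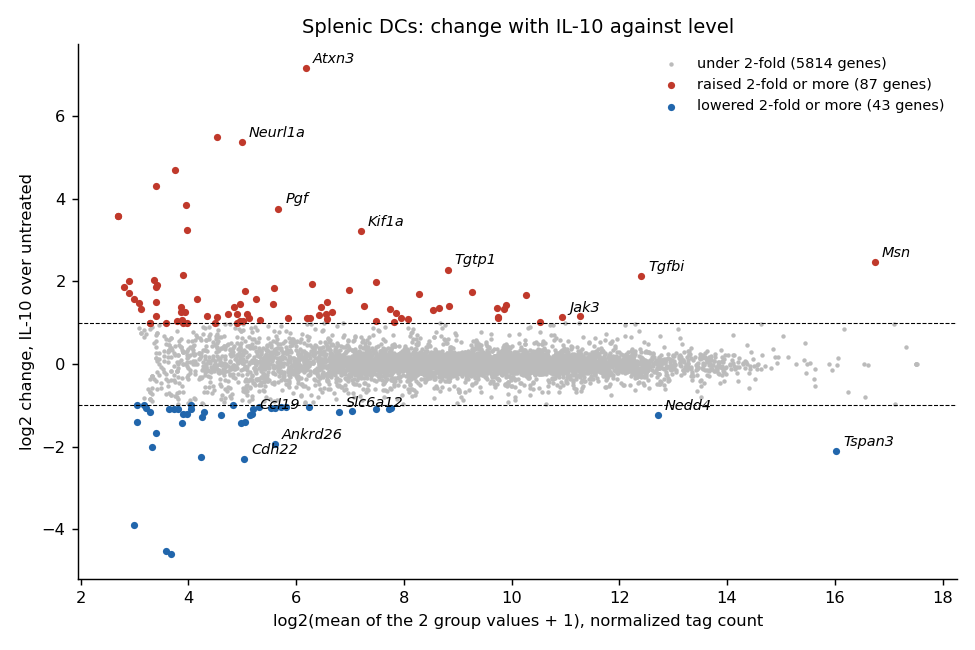
Each point is 1 of 5944 genes in splenic DCs, with the log2 of the mean of both group values plus 1 on the x axis and the log2 change with IL-10 on the y axis; dashed lines mark 2-fold. The 87 raised genes (red) and 43 lowered genes (blue) lie mostly at low levels, with Tgfbi, Msn, Nedd4 and Tspan3 among the high-level exceptions.

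Small values carried most of the calls. Among the 202 genes whose higher value was from 10 to under 20, 15.8% were called, with a median size of change of 0.39 on the log2 scale. Among the 2058 genes from 500 to under 2000 it was 0.583%, with a median size of 0.10. Of the 87 raised genes, 42 had a higher value under 50, as did 27 of the 43 lowered genes. In 33 raised and 18 lowered genes 1 of the 2 groups was under 10, so that such a gene was kept only through the group in which it was high. Since each value is the mean of 2 values that are not negative, a called rise requires that at least 1 of the 2 IL-10 libraries lay above both untreated libraries, and a called fall the reverse. It does not require the same of the other library.

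Tgfbi had the clearest rise at a high level. Its value was 2011 in untreated sDCs and 8783.5 with IL-10, a log2 change of 2.13, and it was 414 with LPS and 4393 with IL-10 and LPS. Both of its transcripts rose, from 1791 to 7979.5 and from 220 to 804. The gene lies on chromosome 13 at 56710920 to 56740923 (NCBIM37). Bst1, a cell surface enzyme of the CD38 family that makes cyclic ADP-ribose, went from 147 to 476.5 (1.69), and from 132 with LPS to 495.5 with both. In both genes the 2 groups that received IL-10 were above the matching groups that did not.

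Several genes that rose steeply began from almost nothing. Neurl1a, an E3 ubiquitin ligase related to Drosophila neuralized, stood at 0.5 untreated and 61 with IL-10, and at 10.5 with LPS and 380 with both. Pgf, placental growth factor of the VEGF family, went from 6 to 94, and from 20.5 with LPS to 157 with both. Kif1a, a motor protein best known for carrying synaptic vesicle precursors in neurons, went from 27.5 to 265 (log2 change 3.22), and from 53 to 577 in the presence of LPS. For Neurl1a and Pgf the untreated value was under 10, and their log2 changes of 5.37 and 3.76 depend on the pseudocount, as given in the closing section. Atxn3, the deubiquitinase ataxin-3, was listed at 0 in untreated sDCs and at 142.5 with IL-10, but at 131.5 with LPS and 93 with both. It was read from 1 of the 5 transcripts annotated for this gene, the only one in the table.

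The 15 largest rises were taken among genes whose higher value was 50 or more. The others of these that are described here had log2 changes from 1.74 to 2.46. Vdr, the vitamin D receptor, stood at 71 untreated and 284 with IL-10, and at 21.5 with LPS and 26.5 with both. Sema6b, a transmembrane semaphorin, went from 31.5 to 123.5, and from 6 to 44 in the presence of LPS. Its 2 transcripts moved in opposite directions without LPS, from 21.5 to 0 and from 10 to 123.5. Arntl2, a circadian clock transcription factor, went from 20 to 74.5, the septin Sept3 from 55.5 to 195, and Niacr1, the nicotinic acid receptor, from 14 to 50. With LPS the last 2 differed widely, Sept3 being at 0.5 with LPS and 1.5 with both agents, and Niacr1 at 351.5 and 374.

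Msn, which encodes moesin, a link between the plasma membrane and actin, reached the top of the scale. Every one of the 18 columns of the table has the same maximum of 185338. The main Msn transcript was at 33479.5 untreated and at 185338 with IL-10, so its change of 2.46 compares a value with the ceiling. Ccr7, the homing receptor of mature dendritic cells, and the antiproliferative gene Btg1 were at 185338 in both groups, and no difference can be read for them. Of the kept genes, 11 held a transcript at this maximum in at least 1 of the 4 sDC groups.

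Tgtp1 and Tgtp2 encode near-identical T-cell-specific GTPases, so how tags divide between them is uncertain. Tgtp1 went from 152 to 744.5 and Tgtp2 from 281 to 943.5 with IL-10. Their sum was 433 untreated and 1688 with IL-10, a log2 change of 1.96, but 12052 with LPS and 7553 with IL-10 and LPS, a log2 change of -0.67. The sum was thus higher with IL-10 in the absence of LPS and lower with IL-10 in its presence.

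**Figure D2:**
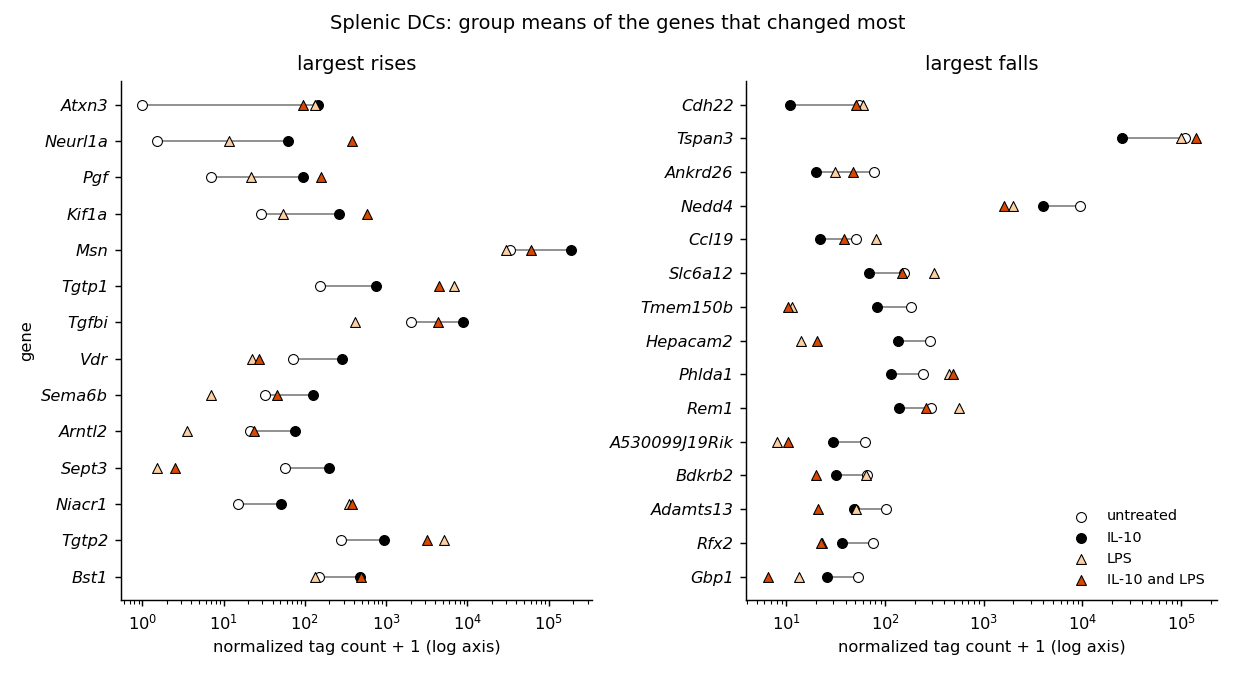
Group means of 14 of the 15 largest rises (left) and 15 largest falls (right) among genes whose higher value was 50 or more, as the normalized tag count plus 1 on a log axis; circles are groups without LPS and triangles groups with LPS, and the grey line joins untreated and IL-10. Kif1a, Pgf, Neurl1a, Tgfbi and Bst1 show the same order in both pairs, whereas Tgtp1 and Tgtp2 show the opposite order with LPS.

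Among genes whose higher value was 50 or more, 16 were lowered. The 15 largest of these falls were smaller, with log2 changes from -1.04 to -2.31. Lowered genes under 50 reached -4.61. Ccl19, a ligand of Ccr7 that draws mature dendritic cells and T cells together, stood at 50 untreated and 21 with IL-10, and at 79.5 with LPS and 37.5 with both. Slc6a12, a betaine and GABA transporter, stood at 153 and 67.5, and at 315.5 and 149 in the presence of LPS. Rem1, a small GTPase of the RGK family, stood at 293 and 139, and at 566 and 257.5. Bdkrb2, the bradykinin B2 receptor, stood at 64.5 and 30.5, and at 63 and 19. Adamts13, the protease that cuts von Willebrand factor, stood at 100.5 and 48, and at 50 and 20, and Gbp1, an interferon-inducible GTPase that is close to other family members in sequence, at 52.5 and 25, and at 12.5 and 5.5. In these 6 genes both groups with IL-10 were below the matching groups without it.

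For the other 9 the difference between both LPS groups did not pass 2-fold. Nedd4 fell from 9400 to 3990.5 (log2 change -1.24), and stood at 1978.5 with LPS and 1591.5 with both. Hepacam2, an immunoglobulin superfamily protein, fell from 287 to 134.5, Phlda1, a pleckstrin homology domain protein, from 241 to 113, and Tmem150b, a membrane protein, from 181 to 81.5. The cadherin Cdh22 fell from 53.5 to 10, Ankrd26 from 76 to 19, the transcription factor Rfx2 from 74.5 to 35.5 and A530099J19Rik from 61.5 to 29. Tspan3 fell from 108812 to 25045.5, and stood at 98453.5 with LPS and 141444 with both. Its main transcript went from 107482.5 to 19148.5 while another went from 1302.5 to 5881. With both agents the main transcript was at 140120, among the highest values of that group, where the shared maximum is 185338. A mean does not show whether a replicate of Tspan3 was at that maximum.

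The genes nearest the threshold, among those of 50 or more, were Ggt5 (149.5 and 302, log2 change 1.01) and Abi3 (975 and 1981, 1.02) just inside it, and Mmp8 (1362.5 and 2721, 1.00 after rounding) and Mylk (60 and 120.5, 0.99) just outside. On the lower side Perp (69.5 and 33.5, -1.03) was just inside, and Aire (334.5 and 169.5, -0.98) and Sulf2 (2108 and 1077, -0.97) were just outside. The 21 raised genes of 50 or more that the rule did not name, Ggt5 and Abi3 among them, had log2 changes from 1.01 to 1.58, and Perp was the 1 lowered gene of that kind. Of the raised genes 59.8% were read from a single transcript in the table and of the lowered genes 72.1%, against 36.6% of all kept genes.

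Of the 26 measured genes of the IL-10 receptor, JAK-STAT pathway and reported STAT3 targets, out of 53 listed, 1 passed 2-fold, where 1.46% of all kept genes were raised and 0.723% lowered. This was Jak3, a kinase that signals for cytokine receptors with the common gamma chain, at 1229 untreated and 2695.5 with IL-10 (log2 change 1.13). It was at 1036.5 with LPS and 2529 with both. All 6 Jak3 transcripts in the table were higher with IL-10 than untreated. The list had a median log2 change of 0.15, against 0.01 for all kept genes, and 18 of its 26 members were above 0. The receptor chains were at 3958 and 3432 for Il10ra and at 2513.5 and 2563 for Il10rb, and the kinase Tyk2 was at 8812 and 7410. The paper reports Socs3, Bcl3 and Sbno2 as known targets raised by IL-10 in each responding cell type. Of these, Socs3 and Bcl3 were not among the 26, nor was Stat3. The counts here therefore say nothing on those genes.

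The members next in order did not pass the threshold. Arid5a, an RNA-binding protein that stabilizes cytokine transcripts, was at 899.5 untreated and 1641 with IL-10 (0.87), the AP-1 family factor Batf at 131.5 and 232 (0.81), and the phosphatase Ptpn1 at 2584 and 4306 (0.74). Further down, Cebpb, a transcription factor of myeloid cells, was at 753 and 1219 (0.69). In the presence of LPS Batf, Ptpn1 and Cebpb rose with IL-10, from 564 to 1444, from 2578.5 to 6431 and from 697 to 1792.5. Sbno2, a corepressor, was at 7590 and 8786 without LPS, and Hmox1, heme oxygenase 1, at 12266 and 13842, changes of 0.21 and 0.17. The main Sbno2 transcript was at 7435 and 8467 (0.19). The other, smaller Sbno2 transcript went from 155 to 319 (1.04), and from 92 to 509 (2.46) in the presence of LPS. The paper reports that a single Sbno2 transcript was raised by IL-10, with a modest change for the gene. Slpi, a secreted protease inhibitor, was at 246 and 347, and the kinase genes Pim1, Pim2 and Pim3 were at 0.17, 0.35 and 0.23. For Cish, Socs2, Myc, Junb, Bcl6, Inpp5d, Ptpn6, Ptpn11, Stat2, Stat4 and Stat6 the log2 changes were between -0.18 and 0.16.

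Interferon-induced genes held 4 of the 11 raised genes among the 338 list members measured, which is 4 of its 39 kept members where 1.46% of all kept genes were raised. Oas2, an antiviral RNA sensor, rose from 48.5 to 139.5 (log2 change 1.51), the GTPase Igtp from 249.5 to 662 (1.40), Rtp4, a receptor transport protein, from 45.5 to 100.5 (1.13), and Zbp1, a nucleic acid sensor, from 154 to 336 (1.12). Tgtp1, Tgtp2 and Gbp1 were not on this list. None of its members was lowered, and 30 of the 39 were above 0, with a median log2 change of 0.19, where 52.5% of all kept genes were above 0. Ifi47, another GTPase of the same family, was at 270 and 538.5 (0.99), and Irgm2 at 379.5 and 619.5 (0.71). The strongly interferon-dependent genes Ifit1 (65 and 79), Ifit2 (78 and 80) and Ifit3 (42 and 32.5) did not pass the threshold in either direction.

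With LPS present the same list stood the other way. All 41 members kept there were lower with IL-10 and LPS than with LPS alone, with a median log2 change of -0.70, where 41.8% of all kept genes were below 0. Of these 41, 7 were lowered 2-fold or more and none was raised, where 2% of all genes kept with LPS were lowered and 2.4% raised. Oas2 stood at 2521 with LPS and 1651.5 with both, Igtp at 3924 and 2400, Rtp4 at 4944 and 2894.5, and Zbp1 at 4274.5 and 2944. Ifit2 fell from 12293.5 to 4114.5 and Ifit3 from 7228.5 to 2652.5. The 2 comparisons share no library, and the difference between them was not tested, since each group is 1 mean.

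The stretch before the transcription start of Igtp, Tgtp1, Tgtp2 and Zbp1 is shown because these 4 raised genes, alone among the 87, held both of 2 short motifs there. One is TTCNNNGAA, the palindromic core that STAT dimers bind, and the other is a pair of GAAA separated by any 2 bases, the core of the interferon-stimulated response element. Both were searched on both strands, and the second was added after the promoters had been seen. The 120 bases before the start of the gene's most abundant transcript are given 5′ to 3′ on the gene's strand, with matches to either motif in capitals, from NCBIM37 with the GENCODE vM1 annotation. They lie at chr11:58012938-58013057 (plus strand) for Igtp, chr11:48805761-48805880 (minus) for Tgtp1, chr11:48877707-48877826 (minus) for Tgtp2 and chr2:173044425-173044544 (minus) for Zbp1.
Igtp: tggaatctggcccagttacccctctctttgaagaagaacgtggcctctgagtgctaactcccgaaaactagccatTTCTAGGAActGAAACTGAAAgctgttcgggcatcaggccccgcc
Tgtp1: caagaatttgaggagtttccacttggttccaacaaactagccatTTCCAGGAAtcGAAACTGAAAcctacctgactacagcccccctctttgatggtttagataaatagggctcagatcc
Tgtp2: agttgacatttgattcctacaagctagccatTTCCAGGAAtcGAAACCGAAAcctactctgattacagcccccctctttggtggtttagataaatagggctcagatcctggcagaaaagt
Zbp1: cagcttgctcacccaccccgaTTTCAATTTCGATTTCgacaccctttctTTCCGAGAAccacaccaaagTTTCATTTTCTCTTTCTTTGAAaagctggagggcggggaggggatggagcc
In Igtp, Tgtp1 and Tgtp2 the STAT core (TTCTAGGAA in Igtp and TTCCAGGAA in both Tgtp genes) is followed after 2 bases by the second motif. The STAT core begins 45 bases before the start in Igtp, 76 in Tgtp1 and 89 in Tgtp2. Zbp1 holds 2 matches to the STAT core, TTCCGAGAA and TTCTTTGAA, and 4 to the second motif, all read as TTTC pairs on the strand shown. Those 4 overlap each other in pairs, and 1 of them also overlaps TTCTTTGAA. Over the 250 bases before the start, TTCNNNGAA was found for 8 of 87 raised genes (9.20%), 1 of 43 lowered genes (2.33%) and 375 of 5937 kept genes (6.32%). The GAAA pair was found for 7 raised genes (8.05%), 3 lowered genes (6.98%) and 3.55% of kept genes. Both were found for 4 raised genes (4.60%), no lowered gene and 0.505% of kept genes. Tgtp1 and Tgtp2, near-identical copies, are counted separately in these numbers. The lowered genes with a match were Ccl17 for the STAT core and A530099J19Rik, Ccl19 and Gbp1 for the GAAA pair. A match says only that the letters are there.

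Cytokine and chemokine genes were mostly little changed by IL-10 alone. Of 22 kept, Tnfsf14, the TNF family ligand LIGHT, rose from 59 to 143.5 (log2 change 1.27), while Ccl19 and Ccl17, a ligand of Ccr4, fell, the latter from 16 to 7. These are 1 raised and 2 lowered of 22, against 1.46% and 0.723% of all kept genes. Il12b, the p40 subunit of IL-12 and IL-23, was at 665.5 untreated and 346 with IL-10 (-0.94), just short of the threshold, and fell from 5828 with LPS to 673.5 with both. Tnf was at 390 and 417 without LPS and fell from 18268.5 to 5413 in its presence, and Lta was at 56.5 and 60 and fell from 627.5 to 175. Il10 itself was at 26 and 20. The list's median log2 change was -0.04 without LPS and -0.81 with LPS, where 9 of 24 kept members were lowered and 1, Csf3, which encodes the granulocyte growth factor G-CSF, was raised, from 12 to 56.5. With LPS 2% of all kept genes were lowered and 2.4% raised.

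Maturation and costimulation genes, 28 of them kept, had a median log2 change of 0.02. Ccl19 and Ccl17 were the 2 called, both lowered, as were 0.723% of all kept genes. Cd86 was at 2344 untreated and 3658 with IL-10 (0.64), Cd80 at 2102 and 2329.5, and Cd40 at 1824.5 and 2292.5, all costimulatory molecules for T cells. The 18 measured NF-kB pathway genes had none past 2-fold and a median of -0.10, with Rel at 5020.5 and 3513 (-0.52) as the lowest, and the 16 kept transcription factors of dendritic cells had none past 2-fold, with Klf4 at 641 and 400.5 (-0.68) and Mycl1 at 369.5 and 220 (-0.75). The 6 measured genes of MHC class II and peptide loading, out of 22 listed, were Ifi30, Lgmn, Ctsl, Ctsz, March1 and Rfxank. None of them encodes an MHC class II chain. Ctsl, the lysosomal protease cathepsin L, was the 1 that passed 2-fold, and rose from 535.5 to 1177 (1.13). March1, the ubiquitin ligase that removes MHC class II and CD86 from the surface, was at 874 and 1138.5 (0.38) without LPS, and rose from 126.5 to 1077 with IL-10 in its presence. The 13 genes of MHC class I and the proteasome had none past 2-fold and a median of 0.02. For the lists with none past 2-fold, that count is near the share over all kept genes, 1.46% raised and 0.723% lowered.

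The 40 kept cytokine and chemokine receptors had a median log2 change of 0.07. The receptors for chemokines of inflammatory sites Ccr2, at 2986.5 untreated and 5775.5 with IL-10 (0.95), and Ccr1, at 296 and 538.5 (0.86), did not pass 2-fold. Of the pattern recognition receptors none of 23 was called. The C-type lectins Clec4n, which encodes dectin-2, at 3392.5 and 6657 (0.97), and Clec4e, which encodes mincle, at 298.5 and 574 (0.94), were the highest, and Tlr3, at 26 and 15.5 (-0.71), the lowest. Among apoptosis regulators 2 of 15 rose, the inflammatory caspase gene Casp4 from 474 to 1218.5 (1.36) and the effector caspase gene Casp6 from 212 to 531 (1.32). Arg1, arginase 1, rose from 15 to 40.5 (1.38) as the 1 of 12 arginine, tryptophan and prostanoid enzymes called. Of all kept genes 1.46% were raised, beside these 2 of 15, 1 of 12 and the 1 of 6 for MHC class II and peptide loading.

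**Figure D3:**
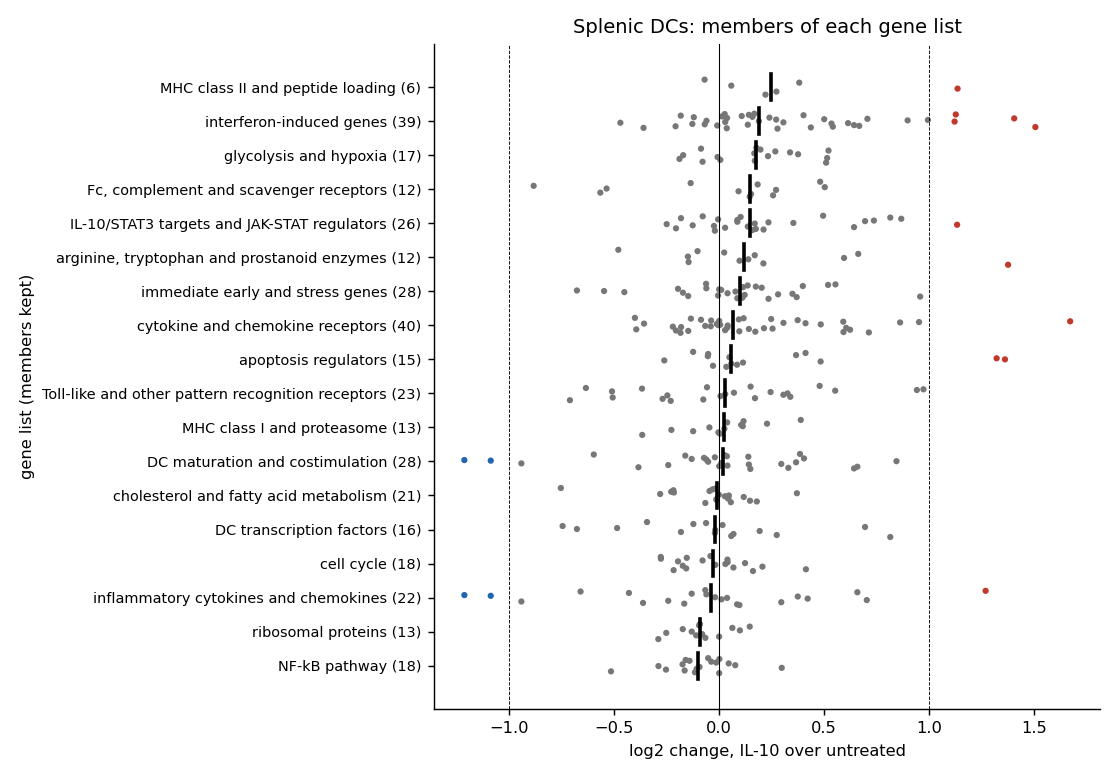
Log2 change with IL-10 in splenic DCs for each kept member of 18 gene lists, with the number kept in brackets; each point is a gene, black bars are list medians, and red and blue points passed 2-fold. The medians run from -0.10 for the NF-kB pathway to 0.25 for MHC class II and peptide loading, and the 11 raised and 2 lowered list members lie in 8 of the 18 lists. The kept members of the MHC class II and peptide loading list include no MHC class II chain.

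The changes with IL-10 alone were next set beside those with IL-10 in cells that also received LPS, a contrast with no library in common with the first. Of 5946 genes kept there, 143 (2.4%) were raised and 119 (2%) lowered 2-fold or more by IL-10 and LPS against LPS. Of the 77 genes raised by IL-10 alone and also kept there, 25 (32.5%) were raised again and 72.7% were higher, against 57.9% of the 5840 genes kept in both. Of the 34 lowered genes also kept there, 12 (35.3%) were lowered again and 76.5% were lower, against 41.5%. Over those 5840 genes Pearson's r between the 2 changes was 0.36 and Spearman's rho 0.32, and over the 4720 genes that reached 100 in both contrasts they were 0.43 and 0.38. These are correlations across genes, which are not independent replicates, and all groups were normalized together.

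The largest changes shared by both contrasts, in order of the smaller of the 2, included the rises of Neurl1a, Igfbp6, Kif1a, Pgf, Tgfbi, Sema6b, Arntl2 and Bst1 and the fall of Kcna2. Igfbp6, an IGF-binding protein, went from 1 to 28 without LPS and from 0.5 to 14 with it. Kcna2, a voltage-gated potassium channel, went from 15 to 4 and from 225.5 to 74.5. Kif1a rose 9.64-fold and then 10.9-fold as a ratio of the group values, and Tgfbi 4.37-fold and then 10.6-fold. LPS alone, which shares the untreated samples with the first contrast, gave values of 414 for Tgfbi and 6 for Sema6b, beside 2011 and 31.5 untreated. A few genes turned direction. Of the raised genes Ildr1 (0 and 11 without LPS, 150.5 and 58 with it), Zhx2 (224 and 575.5, 750 and 313) and Bex6 (17 and 41, 49 and 12.5), and of the lowered genes Mkx (10 and 4.5, 6 and 15.5), were called the other way with LPS. These 4 are named outside the rule, after their values were seen.

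**Figure D4:**
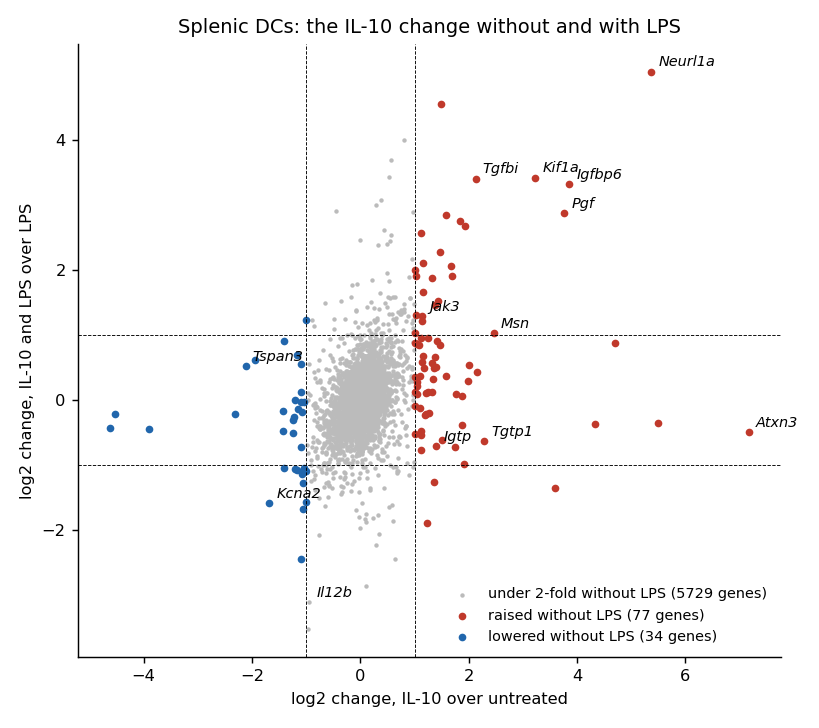
Log2 change with IL-10 in splenic DCs without LPS (x axis) and with LPS (y axis) for the 5840 genes kept in both; dashed lines mark 2-fold, and red and blue points were raised or lowered without LPS. Neurl1a, Kif1a, Igfbp6, Pgf and Tgfbi lie far up in both, while Tgtp1 and Igtp lie to the right and below 0.

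The same genes were read with IL-10 and no LPS in the other 3 cell types that received IL-10. Both neutrophil groups had been given GM-CSF beforehand, and its part in the neutrophil values was not tested. In macrophages 120 of 5932 kept genes (2.02%) were raised and 109 (1.84%) lowered. In neutrophils 65 of 5829 (1.12%) were raised and 38 (0.652%) lowered, and in mast cells 121 of 5662 (2.14%) and 151 (2.67%). Macrophages kept 72 of the genes raised in sDCs and raised 16 of them (22.2%), neutrophils kept 70 and raised 17 (24.3%), and mast cells kept 59 and raised 10 (16.9%). Genes lowered in sDCs were lowered again in 4 of the 26 cases kept by macrophages (15.4%) and in 3 of the 20 kept by mast cells (15%), while neutrophils lowered 0 of 27. Of the 87 raised genes, 57 were raised in none of the other 3 cell types, 18 in 1, 11 in 2 and 1 in all 3. In this count a gene too low to be kept by a cell type stands as not raised there. Across all genes kept in both, Pearson's r with the sDC change was 0.17 for macrophages, 0.21 for neutrophils and 0.22 for mast cells, over 5594, 5599 and 5418 genes. No difference between cell types was tested.

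Of the 87 genes raised in sDCs, Sema6b was the 1 that was raised in all 4 cell types. This count rests on gene sums at 2-fold, from the part of the transcriptome held here. Sema6b went from 293 to 687 in macrophages, from 288.5 to 924 in neutrophils and from 175 to 856 in mast cells. In sDCs its 2 transcripts moved in opposite directions without LPS. The paper, which read single transcripts with a different cut-off, reports a larger set of genes raised in every responding cell type. Jak3 was at 727.5 and 1409.5 in macrophages (0.95), and rose from 272 to 1194 in neutrophils and from 1477.5 to 5817 in mast cells. Igtp, Tgtp1 and Tgtp2 rose in macrophages and in neutrophils as well. Igtp went from 372 to 1692 in macrophages and from 396 to 2237 in neutrophils, and was at 451 and 419 in mast cells. On the interferon-induced list macrophages raised 14 of 41 kept members (median log2 change 0.80), neutrophils 13 of 39 (0.68) and mast cells 0 of 34 (0.04), beside the 4 of 39 in sDCs (0.19). Over all kept genes the raised shares were 2.02% in macrophages, 1.12% in neutrophils, 2.14% in mast cells and 1.46% in sDCs. The 0 of 34 in mast cells is near their share.

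Other raised genes were at unequal levels in the 4 cell types. Tgfbi went from 6824 to 20624 in macrophages (log2 change 1.60), and was at 7801 and 12987.5 in neutrophils and at 414 and 511 in mast cells. Neurl1a was at 21 and 17 in macrophages and at 14 and 14 in neutrophils, and Pgf was listed at 0 in both macrophage groups and was at 89 and 128.5 in neutrophils. Msn was at 52820.5 and 52817 in macrophages, at 52956 and 59961.5 in neutrophils and at 62655 and 60905 in mast cells. Nedd4, lowered in sDCs, was at 1015 and 1033 in macrophages and at 24577 and 16441.5 in mast cells.

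**Figure D5:**
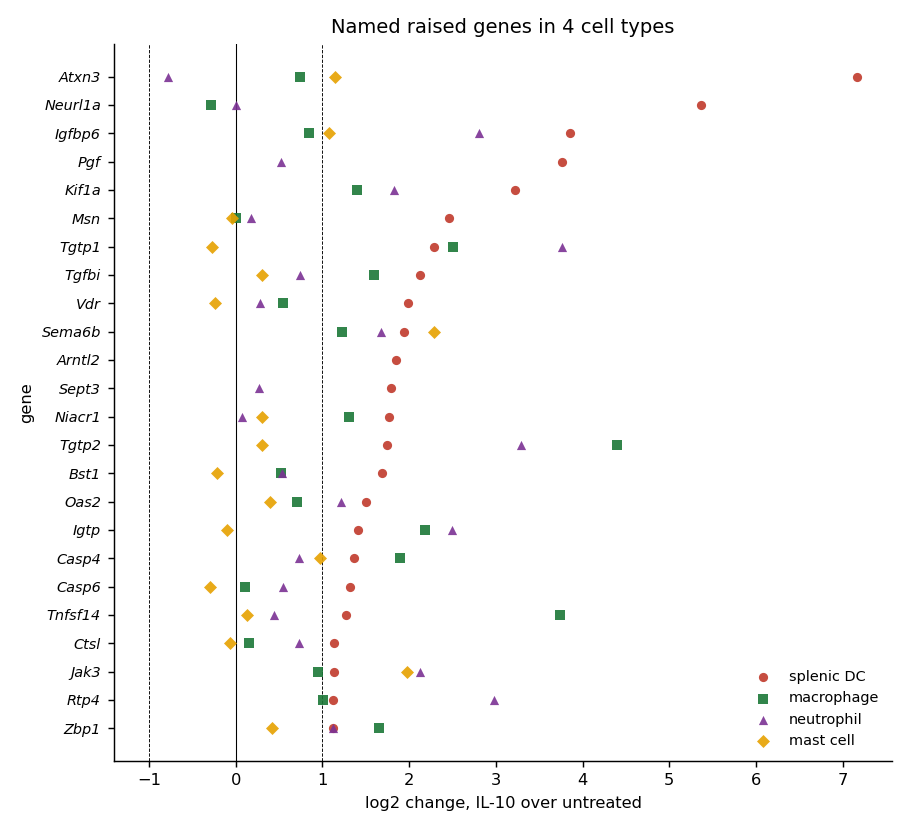
Log2 change with IL-10 over untreated, without LPS, for 24 raised genes named by the rule, in splenic DCs, macrophages, neutrophils and mast cells; a gene under 10 in both groups of a cell type has no point there, and dashed lines mark 2-fold. Sema6b lies beyond 2-fold in all 4 cell types, while Neurl1a, Pgf, Msn, Vdr and Bst1 do so in splenic DCs and in no other cell type plotted.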

How the data were processed

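RNA was extracted with TRIzol, prepared by Illumina protocols and sequenced on a HiSeq 2000. Per the submitters' processing notes, the authors used Bowtie 0.12.9 and RSEM 1.2.1 with the mm9 build to obtain tag counts for Ensembl transcripts. These were corrected for GC content with EDASeq by the authors and then averaged over both replicates of a group, and the deposited score is that mean. All values are multiples of 0.5 and all 18 columns share a maximum. Depth cannot be read from such means, so no interval, SD or limit for a 0 is given, and a 0 is called listed at 0.

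The table as used here has 17015 whole lines, and its last line, 1 in number, is cut short. With 22 lines removed for want of a gene name, 16993 transcripts from 6509 genes remained, so only some of the transcriptome was read. Sums cover the transcripts held, and genes outside the copy were not analysed here. One sample of the series, which has no column, was not used. The annotation (GENCODE vM1 on NCBIM37, the same build) held 16791 of the transcripts.

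Calculations used Python 3.11.15, numpy 2.4.6, pandas 2.3.3, scipy 1.17.1 and matplotlib 3.10.9. Transcripts were summed per gene, genes with a value of at least 10 in either group were kept, and changes were taken on log2(value + 1), which understates those of low genes. Genes that differed by 2-fold or more were called. The procedure was run on simulated counts with known changes, larger than 2-fold and planted only in genes of higher level. Those counts held counting noise alone, so the run says nothing on calls near 2-fold, low genes or replicate spread. No test was run, since each group has 1 value.

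Genes were named by a rule: the 15 largest rises and 15 largest falls among genes with a higher value of 50 or more, list members called at that level, the kept members of the STAT3 list, the 10 genes with the largest smaller-of-2 change called in both sDC contrasts, and defining markers. Other list members are named to describe their list, and genes at the threshold for that reason. Some genes that the rule names are not reported here. The comparison, the 18 pathway lists and the 9 marker lists were chosen with earlier results of these data known. The alternatives were other pseudocounts, filters, folds, scaling and transcript choices.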

Additional observations from a re-analysis of the deposited data

How the results depend on the processing

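The genes raised and lowered numbered 67 and 22 with a pseudocount of 5, 49 and 15 with a pseudocount of 10, 150 and 102 with no filter, 45 and 16 with a minimum of 50, and 37 and 8 with a minimum of 100. They numbered 247 and 187 at 1.5-fold, 32 and 9 at 3-fold, and 135 and 82 with the largest transcript of each gene only. Without summing, 965 and 852 of 13873 transcripts (13.1%) were raised and lowered. With genes at 10 or more in both groups only, an alternative chosen after seeing the data, the numbers were 54 and 25.

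The percent of raised genes higher with IL-10 and LPS than with LPS was 52.2% for transcripts not summed and between 62.1% and 73.9% under the other alternatives. The percent of lowered genes lower with IL-10 and LPS than with LPS was 57.0% for transcripts not summed and 60% at a minimum of 100. List members called numbered 48 at 1.5-fold and 1 at 3-fold, against 13. Of the 30 largest changes, 19 kept their call at a minimum of 100 and 18 at 3-fold. A minimum of 100 and 3-fold remove genes by construction, and for the other settings the cause was not tested. Leaving out genes at the table maximum, also chosen after seeing the data, gave 86 raised and 43 lowered.

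Transcripts not summed gave no value for a gene or list. Under the other 12 alternatives no called gene among those named by the rule changed sign. Of the 771 values of all genes named by the rule, called or not, 14 moved by 1.5-fold or more. Single transcripts of Sema6b (-4.49) and Tspan3 (2.17) had log2 changes opposite in sign to their gene. The log2 change of Neurl1a was 2.76 and that of Pgf 2.70 with a pseudocount of 10. Those of Kcna2 (-0.84) and Igfbp6 (1.79) with that pseudocount were also smaller. None of 324 list medians moved so far. The median over all kept genes stayed within 0.1 of its value.

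No paired analysis was possible because the table holds 1 mean per group. For the same reason no replicate was left out.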

Other observations

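None of the 17 kept genes of glycolysis and the response to hypoxia passed 2-fold with IL-10 alone. Over all kept genes 1.46% were raised and 0.723% lowered, so none of 17 is near that share. Of the 17, 12 were above 0, and the median log2 change was 0.18 without LPS and 0.24 with LPS. Ldha, lactate dehydrogenase A, was at 2988.5 untreated and 4286.5 with IL-10, Slc2a1, the glucose transporter GLUT1, at 534.5 and 761, and Pfkp, a phosphofructokinase, at 1129 and 1612.5, log2 changes of 0.52, 0.51 and 0.51. Slc16a3, a lactate exporter, was at 1470.5 and 1685, and rose from 306.5 to 625.5 with IL-10 in the presence of LPS.

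The metallothionein genes Mt1 and Mt2 encode zinc-binding proteins. Mt1 was at 364.5 and 522.5 without LPS, and rose from 372.5 to 1120.5 in its presence, and Mt2 was at 37.5 and 55.5 and rose from 63.5 to 349. The 28 immediate early and stress genes had none past 2-fold without LPS, with Ier3 at 1193.5 and 2317 as the highest. Ribosomal protein genes, 13 kept, had a median of -0.09, with 10 below 0. The 18 kept cell cycle genes had a median of -0.03, with none past 2-fold. The 21 genes of cholesterol and fatty acid metabolism had a median of -0.01, and the lowest was Ch25h, cholesterol 25-hydroxylase, at 42 and 24.5. Of the 12 kept Fc, complement and scavenger receptors none passed 2-fold, and the haemoglobin scavenger receptor Cd163 was the lowest, at 40.5 and 21.5. In lists of these sizes, none past 2-fold is near the share over all kept genes, 1.46% raised and 0.723% lowered.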
